A study of Mus musculus with 8 samples.

Results

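The amino acid transporter families of the mouse ventral prostate were examined at 12 months of age in 4 hSKP2-KI and 4 WT male mice. Their members were taken by name from the deposited expression table as every gene symbol that starts with Slc1a, Slc3a, Slc6a, Slc7a, Slc36a, Slc38a or Slc43a followed by a number. This rule found 66 of 36333 listed genes in 7 families, of which 62 are transporter genes and 4 are genes of the opposite strand with the suffix os. The WT mice were FVB/N. The hSKP2-KI mice were FVB/N males that carry a P2A-human SKP2 coding sequence in exon 1 of the endogenous mouse probasin gene, inserted with CRISPR/Cas9, so that the probasin promoter of luminal prostate epithelium drives human SKP2. The gene lies on the X chromosome and the males came from heterozygous females crossed with WT FVB/N males. Several knock-in lines exist, and the line that was sequenced is not given in the sources used here. Neither group received a treatment, and each mouse gave 1 library of poly-A selected RNA from whole ventral lobes.

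Amino acid transporters move amino acids and related compounds across the plasma membrane and the lysosomal membrane. SLC1 proteins exchange neutral amino acids or take up glutamate with sodium, SLC7 proteins carry cationic amino acids or pair as light subunits with the SLC3 heavy subunits, SLC38 and SLC36 proteins couple neutral amino acids to sodium or protons, and SLC43 proteins are facilitators. SLC6 proteins use sodium and chloride and include carriers of noradrenaline, serotonin, creatine and taurine beside those of amino acids. The prostate is a secretory gland, and its luminal cells make large amounts of a few proteins. When amino acids are scarce, the transcription factor ATF4 is known to raise several of these transporters, and amino acids in the lysosome activate the kinase complex mTORC1.

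Expression was measured as TPM, which divides reads by transcript length and scales each library to a total of 1000000, so levels can be compared between genes but the number of reads behind a value is not in the files. Ventral prostate secretory genes dominated every library. The summed TPM of Sbp, Sbpl and Spink1 lay between 404000 and 458000 in WT and between 321000 and 343000 in hSKP2-KI libraries, and all 5 seminal vesicle markers were below 1 TPM in every library. The median log2 fold change (log2FC, hSKP2-KI over WT, of TPM + 1) of all 13080 genes tested was 0.23, and after median-ratio scaling, which sets the typical gene equal between libraries, it was -0.01. For this reason each difference is given for TPM as deposited and after median-ratio scaling. Transcripts of skeletal muscle stood out in WT replicate 2 and hSKP2-KI replicate 4, where Myh4 had a TPM of 12.6 and 12.3 against at most 0.307 in the other libraries. Adipocyte markers were low in WT replicate 3 and hSKP2-KI replicate 1, with summed TPM of 80.5 and 77.8. Several stromal and immune marker lists held many calls in the higher direction, where 32.7% of all genes were called as deposited and 6.91% after median-ratio scaling. As deposited 8 of 8 fibroblast, 6 of 6 smooth muscle, 5 of 6 endothelial and 6 of 7 macrophage markers were called higher, and 3, 3, 3 and 0 of them after scaling, when 5 macrophage markers had an unadjusted p under 0.05. Of 4 general leukocyte markers 2 were called higher as deposited and 0 after scaling (1 at an unadjusted p under 0.05), of 3 tested T cell markers 2 and 0 (2 unadjusted), and of 5 B and plasma cell markers 0 and 0 (0 unadjusted both ways).

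The ventral lobe used a small part of the transporter repertoire at high level. Slc1a5, the sodium-dependent neutral amino acid exchanger ASCT2, was the most abundant transporter of these families in 8 of 8 libraries and made up 30.4% to 36.2% of their summed TPM. The 10 most abundant genes made up 81.7% to 83.6%, and the summed TPM of the 62 transporters ranged from 968 to 1149 in WT and from 949 to 1063 in hSKP2-KI libraries. A mean TPM of at least 100 was reached by Slc1a5, Slc38a10 and Slc7a4, at least 20 by 13 members and at least 10 by 19 members. At the low end, 31 members stayed below 1 TPM in every library, and 6 of these, Slc6a16, Slc6a19, Slc6a19os, Slc6a20b, Slc7a9 and Slc36a3, were listed at 0 throughout. A value of 0 in a table without read counts does not show that a transcript was absent. Genes entered the tests when 4 or more libraries reached 1 TPM, and 32 members did so, 31 transporters and Slc7a6os.

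**Figure D1:**
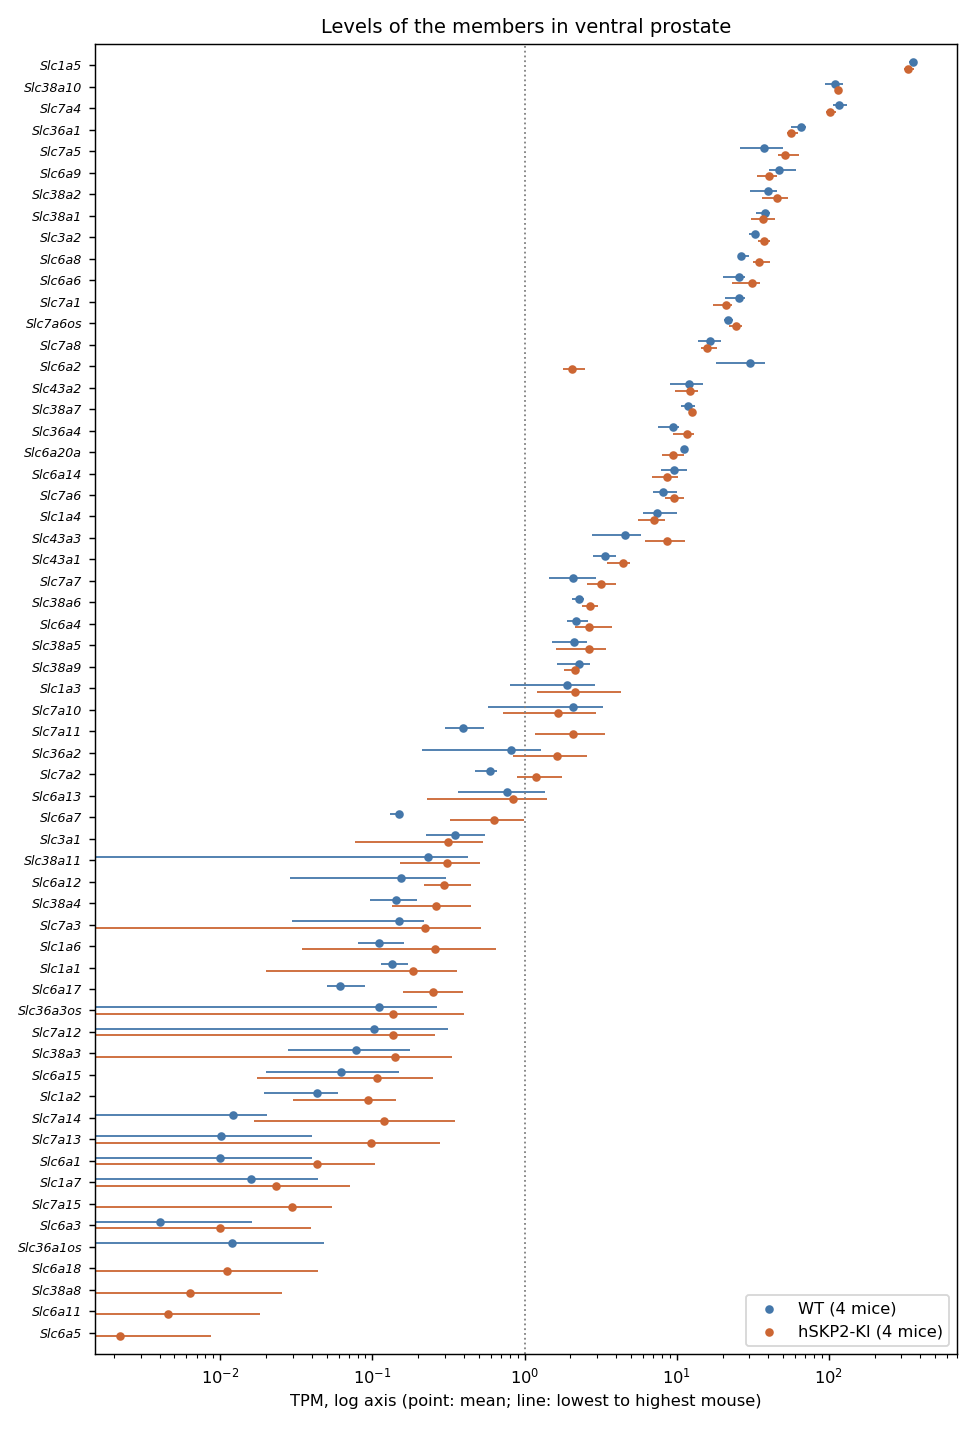
TPM on a log axis of the 60 members with a value above 0, as the mean (points) and the range from the lowest to the highest mouse (lines) of 4 WT and 4 hSKP2-KI ventral prostates. Lines that reach the left edge include a value of 0 or below the axis, and the dotted line is at 1 TPM. Slc1a5 lies at the top, and the groups are far apart for Slc6a2 and Slc7a11.

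Between genotypes, 4 of the 32 members tested had an adjusted p under 0.05 as deposited (limma on log2(TPM + 1), Benjamini-Hochberg adjusted over all 13080 genes). Slc7a11, Slc43a3 and Slc6a8 were higher in hSKP2-KI prostates, where 32.7% of all genes tested were called higher, and Slc6a2 was lower, where 1.23% were called lower. After median-ratio scaling Slc7a11 was called higher, beside 6.91% of all genes, and Slc6a2, Slc1a5, Slc7a4, Slc36a1, Slc7a1 and Slc6a20a were called lower, beside 4.25% of all genes. The median log2FC of the members was 0.08 as deposited and -0.13 after scaling, against 0.23 and -0.01 for all genes. The libraries of the genotypes did not overlap for 3 tested members that were higher and 1 that was lower as deposited, beside 34.0% and 1.03% of all genes, and for 1 higher and 9 lower after scaling, beside 10.3% and 8.91%. Those 9 were the 6 called lower and Slc38a10, Slc6a9 and Slc6a14. Slc6a2 was called lower under all 4 scalings of the TPM that were tried. Slc7a11 was called higher under the same 4, but it entered the tests only through the hSKP2-KI libraries, where it was high, so its calls are no separate support. In all, 23 members were called neither as deposited nor after median-ratio scaling. Without WT replicate 2 and hSKP2-KI replicate 4, the libraries with skeletal muscle transcripts, the same 3 members were called higher and the same 1 lower as deposited, while after scaling 2 of the 6 remained called lower, Slc6a2 and Slc36a1.

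**Figure D2:**
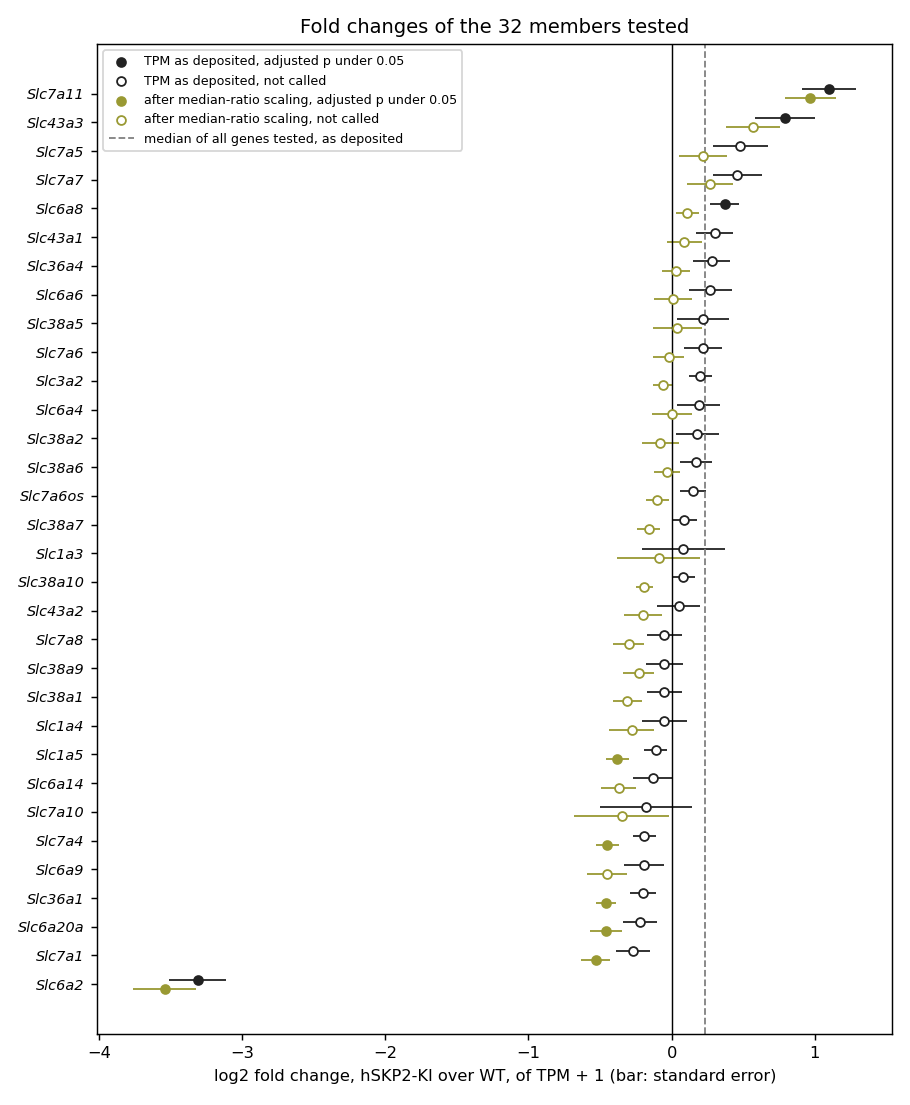
Log2FC values (log2 fold change of TPM + 1), hSKP2-KI over WT, with standard errors (bars) for the 32 members tested, from 4 libraries per group. Dark points are TPM as deposited and light points are after median-ratio scaling, filled where the adjusted p was under 0.05. The dashed line marks the median of all genes as deposited, 0.23. Slc6a2 lies at -3.31 and Slc7a11 at 1.10.

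Slc6a2 (Entrez 20538, GRCm38 chromosome 8, 92960470 to 93001667, plus strand) encodes the noradrenaline transporter NET, known for clearing noradrenaline at sympathetic nerve endings. Its TPM was 32.7, 18.0, 32.5 and 37.8 in WT replicates 1 to 4 and 1.83, 2.09, 1.78 and 2.49 in hSKP2-KI replicates 1 to 4. The lowest WT library lay above the highest hSKP2-KI library, and WT replicate 2 was lower than the other WT libraries. The mean fell from 30.3 ± 8.52 (SD, n = 4) to 2.05 ± 0.324 (SD, n = 4), which was 14.8-fold lower, with a log2FC of -3.31 (SE 0.20, adjusted p = 4.87e-06) and of -3.54 after median-ratio scaling (adjusted p = 3.08e-05). By mean level it was 10th of the 66 members in WT and 31st in hSKP2-KI prostates. In whole tissue, fewer cells of a type and less RNA per cell cannot be told apart.

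Markers of sympathetic neurons were low in WT prostates, and those that differed were higher in hSKP2-KI prostates. Th and Dbh, the enzymes that make noradrenaline, and Phox2a, Hand2 and Slc18a2 were below 1 TPM in 8 of 8 libraries. Dbh reached at most 0.264 TPM in WT prostates. The summed TPM of all 9 neuron markers was 1.71 to 3.32 in WT and 4.88 to 26.8 in hSKP2-KI libraries. Stmn2 and Prph, general neuron genes, were the markers tested, and both were called higher as deposited (adjusted p = 0.0233 and 0.0458) and neither after scaling, when both had an unadjusted p under 0.05. Prph passed the filter only through the hSKP2-KI libraries. Npy, a neuropeptide below the filter, was at most 0.152 TPM in WT and 0.576 to 6.30 TPM in hSKP2-KI libraries. The highest sum was in hSKP2-KI replicate 1, with 8.51 TPM of Prph and 7.91 of Stmn2. Leaving that library out gave a log2FC of Slc6a2 of -3.28 (adjusted p = 2.79e-05). The part of nerves in the level of Slc6a2 and in its difference was not tested.

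Other genes of catecholamine handling were called only as deposited. Of 6 tested genes, 5 were called higher as deposited, beside 32.7% of all genes. After median-ratio scaling 0 were called higher, beside 6.91% of all genes, and 1 had an unadjusted p under 0.05. Slc18a1, the vesicular monoamine transporter VMAT1, had a TPM of 7.49, 11.6, 2.98 and 2.80 in WT and 11.6, 9.03, 16.3 and 20.1 in hSKP2-KI libraries, a log2FC of 1.21 (adjusted p = 0.0299) and 0.97 after scaling (adjusted p = 0.13). Maoa, which degrades catecholamines, had a log2FC of 0.29 as deposited and 0.05 after scaling. Among adrenergic receptors, 5 of 6 tested genes were called higher as deposited and 1 after scaling, beside the same shares of all genes. After scaling 4 had an unadjusted p under 0.05 in the higher direction. The receptor called after scaling was Adra2a, at 2.13 ± 0.454 TPM in WT and 4.19 ± 0.977 TPM in hSKP2-KI prostates (SD, n = 4 each). Its log2FC was 0.72 as deposited (adjusted p = 0.00905) and 0.53 after scaling (adjusted p = 0.0399). The other monoamine carriers were low in both groups. Slc6a4, the serotonin transporter, had means of 2.19 and 2.66 TPM (log2FC 0.19, adjusted p = 0.336), and Slc6a3, the dopamine transporter, reached at most 0.0397 TPM.

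**Figure D3:**
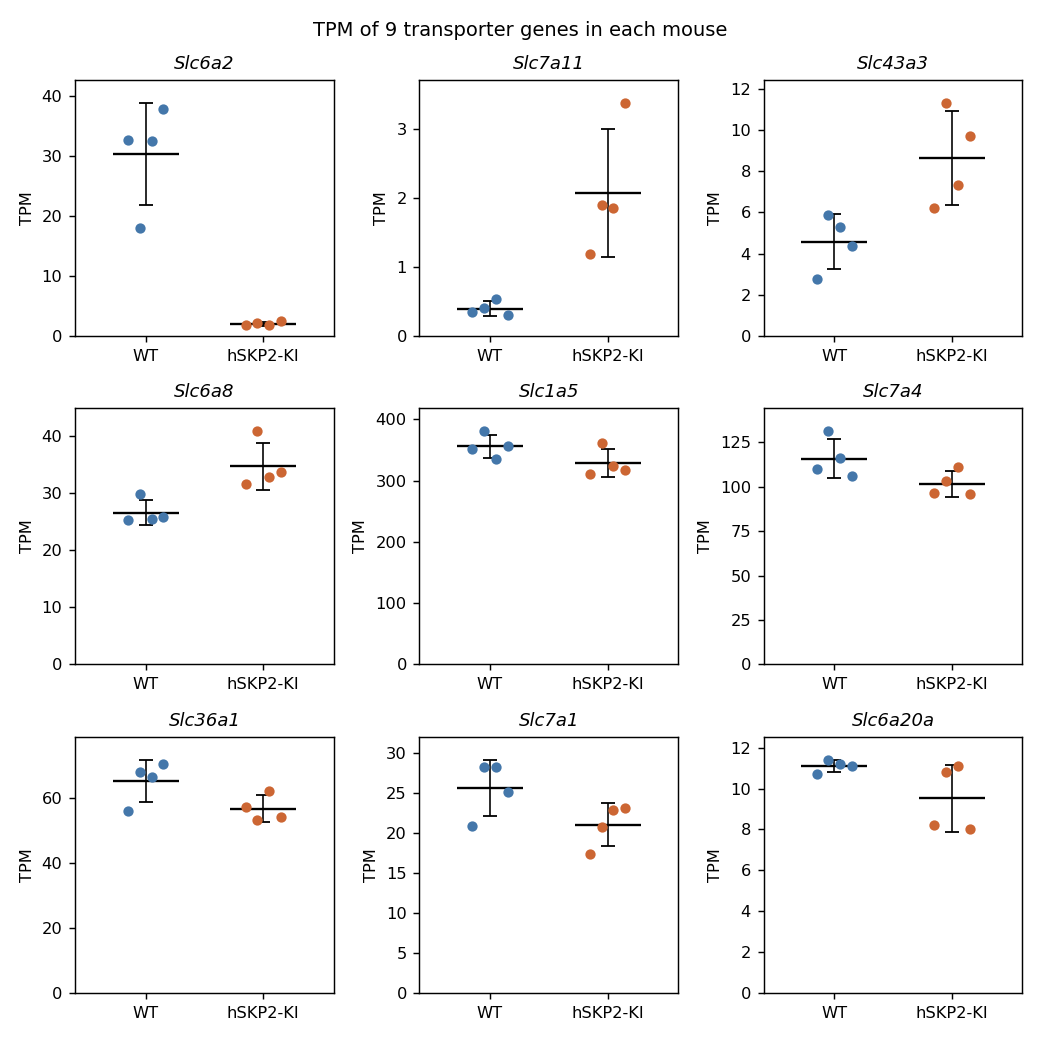
TPM of the 9 members called as deposited or after median-ratio scaling, in each of 4 WT and 4 hSKP2-KI ventral prostates. Points are mice, horizontal lines are means and bars are SD; every axis starts at 0. Slc6a2 is at 18.0 or more in WT and at 2.49 or less in hSKP2-KI prostates.

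Slc7a11 (Entrez 26570, GRCm38 chromosome 3, 50364936 to 50499087, minus strand) encodes xCT, the light subunit that imports cystine in exchange for glutamate and so supplies cysteine for glutathione. Its TPM was 0.344, 0.399, 0.539 and 0.298 in WT and 1.18, 1.89, 1.85 and 3.37 in hSKP2-KI replicates 1 to 4. The groups did not overlap, and hSKP2-KI replicate 4 was the highest. The means were 0.395 ± 0.105 and 2.07 ± 0.922 TPM (SD, n = 4 each), a 5.25-fold difference in mean TPM, with a log2FC of 1.10 on the TPM + 1 scale (SE 0.19, adjusted p = 0.00359) and of 0.97 after scaling (adjusted p = 0.0129). Slc7a11 passed the filter only through the hSKP2-KI libraries, all 4 of which were above 1 TPM, and its levels are low in both groups. With a pseudocount of 0.1 the log2FC was 2.07, and without hSKP2-KI replicate 4 it was 0.91 (adjusted p = 0.00556). In that replicate the urothelial marker Upk3a had a TPM of 12.5, against at most 0.312 in the other libraries. Upk3a was a small part of the summed TPM of the 4 urothelial markers. That sum was 966, 1010, 759 and 720 in hSKP2-KI replicates 1 to 4 and 398 to 662 in WT libraries. Summed macrophage markers were 93.5 to 193 TPM in WT and 212 to 433 in hSKP2-KI libraries, with the highest value in hSKP2-KI replicate 2. Summed proximal luminal markers were 116 to 125 TPM in WT libraries and 468, 409, 329 and 537 TPM in hSKP2-KI replicates 1 to 4. All 5 proximal luminal markers were called higher as deposited, beside 32.7% of all genes, and 4 after scaling, beside 6.91%. The part of urothelial, macrophage and proximal luminal cells in the difference of Slc7a11 was not tested.

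The promoter of Slc7a11 is shown because it holds the amino acid response element that ATF4 is known to bind, here the letters TGATGCAA searched on both strands. The sequence is the 250 bases before the transcript start listed in RefSeq at position 50443613 (GRCm38.p6, chr3:50443614-50443863, minus strand). That start lies inside the gene interval given above, which reaches further upstream. The sequence is written 5′ to 3′ with the matches in capitals.
Slc7a11: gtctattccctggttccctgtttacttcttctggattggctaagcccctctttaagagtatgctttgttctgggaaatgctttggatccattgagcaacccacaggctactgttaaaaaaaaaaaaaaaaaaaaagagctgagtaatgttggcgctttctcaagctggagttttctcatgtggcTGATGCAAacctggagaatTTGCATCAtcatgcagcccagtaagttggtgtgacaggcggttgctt
The 2 copies start 66 and 47 bases before the start of transcription. The first is on the sense strand. The second is on the other strand, so it appears as TTGCATCA in the sequence as written. Of 32851 RefSeq windows of 250 bases before a listed start, 0.791% held these letters. Such windows were found for 48 of the 66 members, and 2 of them had a match, Slc7a11 and, before 1 of its 5 listed starts, Slc7a7. A match is a run of letters and not a measured site. Slc7a7, the light subunit y+LAT1, had means of 2.07 and 3.20 TPM (log2FC 0.46, adjusted p = 0.0562).

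Known ATF4 targets were called in both directions, and each direction is read against its share of all genes. As deposited 32.7% of all genes were called higher and 1.23% lower, and after scaling 6.91% and 4.25%. Of the 8 members known as ATF4 targets, 7 were tested; 1 of these, Slc7a11, was called higher as deposited, and after scaling Slc7a11 was called higher and Slc7a1 lower. Among 23 other genes of the amino acid response, all tested, 5 were called higher and 3 lower as deposited, and 0 higher and 5 lower after scaling, where 2 had an unadjusted p under 0.05 in the higher direction. Their median log2FC was 0.02 as deposited and -0.22 after scaling. The genes called lower both ways were Cth, Asns and Nupr1. Asns, asparagine synthetase, had means of 73.9 ± 11.6 and 56.7 ± 4.21 TPM (SD, n = 4 each) and a log2FC of -0.37 (adjusted p = 0.0289), and the adjusted p rose to between 0.0505 and 0.0772 when WT replicate 3 or 4 or hSKP2-KI replicate 3 or 4 was left out. Nupr1, a stress-induced nuclear protein, had means of 875 and 524 TPM and a log2FC of -0.74 (adjusted p = 0.0143). Atf5, a transcription factor of the same response, had a log2FC of 0.76 as deposited (adjusted p = 0.0122) and 0.50 after scaling (adjusted p = 0.1). Atf4 itself had means of 167 and 177 TPM, with a log2FC of 0.09 (adjusted p = 0.42).

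Cysteine can also be made within the cell, and Cth, cystathionine gamma-lyase, which forms cysteine from cystathionine, changed in the opposite direction to Slc7a11. The TPM of Cth was 9.44, 9.92, 10.7 and 10.3 in WT and 2.51, 2.95, 3.68 and 2.05 in hSKP2-KI replicates 1 to 4. The groups were well apart, with a log2FC of -1.56 (SE 0.13, adjusted p = 0.000104) and of -1.78 after scaling. Gclm and Gss, which take part in glutathione synthesis, had log2FC values of 0.36 (adjusted p = 0.00892) and 0.27 (adjusted p = 0.0387) as deposited and of 0.09 and 0.01 after scaling. Gclc, the catalytic partner of Gclm, had a log2FC of 0.01 as deposited.

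**Figure D4:**
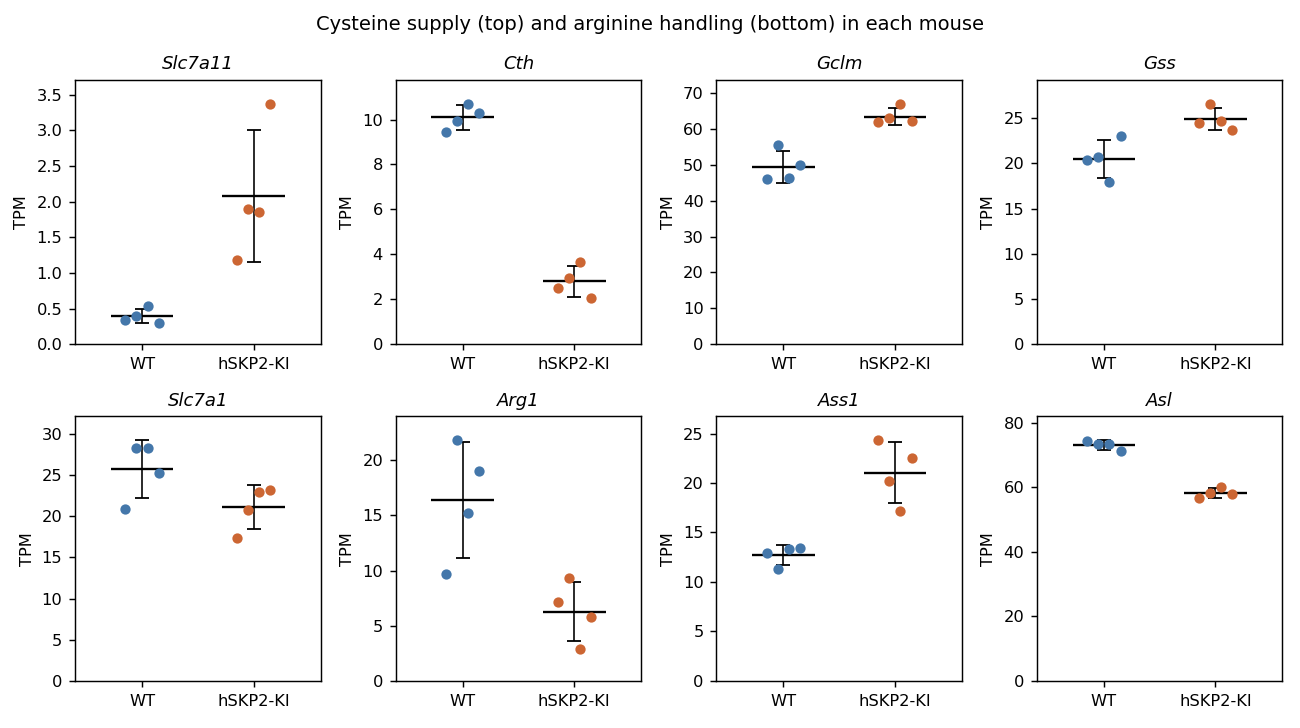
TPM in each of 4 WT and 4 hSKP2-KI ventral prostates of genes of cysteine supply and glutathione synthesis (top) and of arginine transport and metabolism (bottom). Points are mice, lines are means, bars are SD and axes start at 0. Cth is at 9.44 or more in WT and at 3.68 or less in hSKP2-KI prostates.

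The heavy subunit Slc3a2 (4F2hc or CD98), which brings Slc7a11 and several other light subunits to the plasma membrane, was abundant in both groups. Its TPM was 29.9, 34.8, 31.6 and 34.3 in WT and 37.6, 40.8, 34.4 and 38.2 in hSKP2-KI libraries, overlapping only at 34.4 to 34.8, with a log2FC of 0.20 (adjusted p = 0.0766) and -0.06 after scaling. Slc7a5, the light subunit LAT1 for large neutral amino acids, had a TPM of 25.9, 49.6, 44.7 and 30.7 in WT and 46.1, 48.1, 49.7 and 63.3 in hSKP2-KI libraries. WT replicates 1 and 4 were the low libraries, and the log2FC was 0.48 (SE 0.19, adjusted p = 0.0652) and 0.22 after scaling. Slc7a8 (LAT2) had means of 16.6 and 15.9 TPM, Slc7a6 (y+LAT2) of 8.09 and 9.57 TPM, and Slc7a10 (Asc-1) of 2.07 and 1.66 TPM, and none of the 3 was called either way. Slc7a10 was lowest in WT replicate 3 and hSKP2-KI replicate 1, at 0.575 and 0.725 TPM, which are also the libraries with the lowest adipocyte markers. Slc7a6 and Slc7a6os lie on opposite strands next to each other on chromosome 8, and whether reads were counted by strand is not stated. Slc7a6os had means of 21.8 and 24.4 TPM. Of 6 tested light subunits, Slc7a11 alone was called, higher both ways. Among all genes 32.7% were called higher as deposited and 6.91% after scaling. Slc3a1 (rBAT), the other heavy subunit, stayed at or below 0.553 TPM, and its partner Slc7a9 was listed at 0. Bsg, a membrane partner protein of other carriers, was at 528 and 666 TPM, with a log2FC of 0.33 (adjusted p = 0.00607) and 0.07 after scaling.

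Both tested cationic carriers were called lower after median-ratio scaling, beside 4.25% of all genes. Neither was called as deposited, where 1.23% of all genes were called lower. Slc7a1 (Entrez 11987, GRCm38 chromosome 5, 148327410 to 148399904, minus strand) encodes CAT1, which takes up arginine and lysine. Its TPM was 20.9, 28.3, 28.3 and 25.2 in WT and 17.4, 20.8, 22.9 and 23.2 in hSKP2-KI libraries, so that WT replicate 1 overlapped the hSKP2-KI libraries. The log2FC was -0.27 as deposited (SE 0.12, adjusted p = 0.0988) and -0.53 after scaling (SE 0.10, adjusted p = 0.0114), and without WT replicate 1 it was -0.36 as deposited (adjusted p = 0.0419). Scaled values were 25.3 to 31.7 in WT and 16.3 to 20.9 in hSKP2-KI libraries. Slc7a4 (Entrez 224022, GRCm38 chromosome 16, 17572018 to 17576890, minus strand) belongs to the same branch by sequence, and its substrate is not established. Its TPM was 110, 131, 116 and 106 in WT and 96.3, 103, 111 and 95.8 in hSKP2-KI libraries. The log2FC was -0.19 as deposited (adjusted p = 0.103) and -0.45 after scaling (adjusted p = 0.00972). The gene overlaps P2rx6 on the opposite strand. Without the libraries with skeletal muscle transcripts, the scaled log2FC values were -0.56 for Slc7a1 (adjusted p = 0.0518) and -0.39 for Slc7a4 (adjusted p = 0.064).

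Enzymes of arginine metabolism differed in both directions. Arg1, cytosolic arginase, had a TPM of 9.66, 21.8, 15.2 and 19.0 in WT and 7.12, 9.30, 2.92 and 5.78 in hSKP2-KI libraries, a log2FC of -1.29 (SE 0.29, adjusted p = 0.00979) and of -1.53 after scaling (adjusted p = 0.0109). Every hSKP2-KI library was below every WT library. Asl, argininosuccinate lyase, which releases arginine, was at 73.1 ± 1.41 and 58.2 ± 1.50 TPM (SD, n = 4 each), a log2FC of -0.32 (adjusted p = 0.00523) and of -0.59 after scaling (adjusted p = 0.00237). Ass1, argininosuccinate synthetase, the step before Asl, was at 12.7 ± 0.954 and 21.1 ± 3.07 TPM, a log2FC of 0.68 (adjusted p = 0.00276) and of 0.42 after scaling (adjusted p = 0.054). Of the 17 tested enzymes of glutamine, arginine and cysteine metabolism, 5 were called higher and 2 lower as deposited. Among all genes these shares were 32.7% and 1.23%. After scaling 1 was called higher and 2 lower, beside 6.91% and 4.25% of all genes. The share called higher was near that of all genes both ways.

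Slc1a5 (Entrez 20514, GRCm38 chromosome 7, 16781334 to 16798274, plus strand), a main route of glutamine uptake, had a TPM of 351, 380, 335 and 357 in WT and 311, 361, 324 and 318 in hSKP2-KI libraries. The groups overlapped through hSKP2-KI replicate 2. The means were 356 ± 18.7 and 329 ± 22.2 TPM (SD, n = 4 each), with a log2FC of -0.11 as deposited (SE 0.08, adjusted p = 0.232). After scaling the values were 375 to 424 in WT and 283 to 326 in hSKP2-KI libraries, and the log2FC was -0.38 (SE 0.08, adjusted p = 0.0142), or -0.36 without the libraries with skeletal muscle transcripts (adjusted p = 0.0744). Gls2, a glutaminase, was the enzyme called higher both ways, at 0.973 ± 0.256 and 2.72 ± 0.365 TPM, with a log2FC of 0.92 (adjusted p = 0.00188) and of 0.76 after scaling (adjusted p = 0.008). Slc1a4, the neutral amino acid exchanger ASCT1, had means of 7.41 and 7.09 TPM (log2FC -0.05, adjusted p = 0.831). The glutamate carrier Slc1a3 (EAAT1) was low and uneven, at 0.797 to 2.90 TPM in WT and 1.21 to 4.29 TPM in hSKP2-KI libraries, and its log2FC of 0.08 had an SE of 0.29. Slc1a1, Slc1a2, Slc1a6 and Slc1a7, the other glutamate carriers, stayed at or below 0.645 TPM.

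Slc36a1 (Entrez 215335, GRCm38 chromosome 11, 55204322 to 55236330, plus strand), the proton-coupled carrier PAT1 of lysosomes and plasma membrane, had a TPM of 56.0, 68.0, 66.6 and 70.6 in WT and 57.1, 53.2, 62.3 and 54.2 in hSKP2-KI libraries. WT replicate 1 was the low WT library. The log2FC was -0.20 as deposited (SE 0.09, adjusted p = 0.104), -0.27 without WT replicate 1 (adjusted p = 0.0371), and -0.46 after scaling (SE 0.07, adjusted p = 0.00688). Slc36a4 (PAT4), a carrier of proline and tryptophan, was at 9.45 ± 1.31 and 11.7 ± 1.58 TPM (log2FC 0.28, adjusted p = 0.106). Of 24 tested genes of lysosomal amino acid sensing and mTORC1, 5 were called higher and 1 lower as deposited. Among all genes these shares were 32.7% and 1.23%. After scaling 0 were called higher and 1 lower, beside 6.91% and 4.25% of all genes. In the higher direction 1 had an unadjusted p under 0.05 after scaling. The gene called lower both ways was Lamtor3, a subunit of the Ragulator scaffold, at 44.6 ± 3.62 and 35.2 ± 5.12 TPM, with a log2FC of -0.34 (adjusted p = 0.0328) and of -0.60 after scaling (adjusted p = 0.00826). Lamtor2, another subunit, had a log2FC of 0.35 (adjusted p = 0.0136) and of 0.08 after scaling. Without the libraries with skeletal muscle transcripts the adjusted p as deposited was 0.132 for Lamtor3 and 0.0691 for Lamtor2.

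None of the 7 tested sodium-coupled neutral carriers of the SLC38 family was called, beside 33.9% of all genes as deposited and 11.2% after median-ratio scaling. At an unadjusted p under 0.05 0 were counted as deposited and 2 after scaling, both lower. Among all 13080 genes, 1598 were lower at that threshold after scaling. Slc38a10 had a TPM of 94.4, 124, 106 and 111 in WT and 113, 114, 117 and 114 in hSKP2-KI libraries, with a log2FC of 0.08 (SE 0.08, adjusted p = 0.459) and of -0.19 after scaling (adjusted p = 0.0679). The hSKP2-KI libraries were close to each other and inside the WT range. Slc38a2 (SNAT2), which amino acid shortage is known to raise, had a TPM of 30.5, 45.7, 44.5 and 39.5 in WT and 36.2, 40.1, 53.7 and 52.3 in hSKP2-KI libraries, with a log2FC of 0.18 (SE 0.15, adjusted p = 0.352). Slc38a1 (SNAT1) had a TPM of 33.0, 41.1, 40.1 and 37.9 in WT and 30.9, 33.7, 44.1 and 39.1 in hSKP2-KI libraries, with a log2FC of -0.05 (SE 0.12, adjusted p = 0.748). Slc38a9, the arginine sensor of the lysosome, was at 2.27 and 2.14 TPM, and Slc38a7, a lysosomal glutamine carrier, at 11.8 and 12.6 TPM. Slc38a5 and Slc38a6 were between 1.52 and 3.42 TPM in every library.

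In the SLC43 family, 1 of 3 facilitators was called higher as deposited, beside 32.7% of all genes, and 0 after scaling, beside 6.91%. Slc43a3 (Entrez 58207, GRCm38 chromosome 2, 84936545 to 84958509, plus strand), known to carry purine nucleobases and not amino acids, had a TPM of 2.78, 5.85, 5.29 and 4.38 in WT and 6.21, 11.3, 7.33 and 9.70 in hSKP2-KI libraries. Every hSKP2-KI library was above every WT library, as was the case for 34.0% of all genes tested. The log2FC was 0.79 (SE 0.21, adjusted p = 0.0173) and 0.57 after scaling (adjusted p = 0.0809). Over the same libraries the summed endothelial markers, 5 of 6 of them called higher, were 29.7 ± 4.01 TPM in WT and 52.7 ± 12.4 TPM in hSKP2-KI prostates (SD, n = 4 each), and their part in the difference was not tested. Slc43a1 (LAT3) was at 3.40 and 4.44 TPM (log2FC 0.30, adjusted p = 0.089) and Slc43a2 (LAT4) at 12.0 and 12.3 TPM (log2FC 0.05, adjusted p = 0.815).

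Among the other SLC6 carriers, Slc6a8 (Entrez 102857, GRCm38 chromosome X, 73673133 to 73682502, plus strand), the creatine transporter, had a TPM of 25.3, 29.8, 25.4 and 25.8 in WT and 31.6, 40.8, 32.8 and 33.7 in hSKP2-KI libraries. The groups did not overlap as deposited, and the log2FC was 0.37 (SE 0.10, adjusted p = 0.0169). After scaling the groups overlapped and the log2FC was 0.11 (adjusted p = 0.437). Slc6a6, the taurine transporter, was at 25.5 ± 3.71 and 31.1 ± 5.57 TPM (log2FC 0.27, adjusted p = 0.156). Slc6a9 (GlyT1), a glycine carrier, had a TPM of 40.4, 45.2, 61.1 and 40.2 in WT and 33.6, 38.4, 45.1 and 45.6 in hSKP2-KI libraries, with a log2FC of -0.19 (adjusted p = 0.301) and of -0.45 after scaling (adjusted p = 0.0738). Slc6a20a (Entrez 102680, GRCm38 chromosome 9, 123636907 to 123678832, minus strand), a proline and imino acid carrier, had a TPM of 10.7, 11.4, 11.2 and 11.1 in WT and 8.24, 10.8, 11.1 and 8.00 in hSKP2-KI libraries. WT values were narrow and hSKP2-KI values split into a higher and a lower pair. The log2FC was -0.22 (adjusted p = 0.155) and -0.46 after scaling (SE 0.11, adjusted p = 0.0268), and the scaled adjusted p rose to between 0.0541 and 0.0692 when any of WT replicates 1, 3 and 4 or hSKP2-KI replicates 1 and 4 was left out. The gene overlaps others on the opposite strand, Ccr9 among them. Slc6a14 (ATB0,+), which carries neutral and cationic amino acids, was at 9.60 ± 1.56 and 8.69 ± 1.40 TPM (log2FC -0.13, adjusted p = 0.451).

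The 34 members below the filter were of 3 kinds. Besides the 6 listed at 0, 25 stayed between 0 and 1 TPM in every library. Among these, every hSKP2-KI library was above every WT library for Slc6a7, the proline transporter PROT, at 0.131 to 0.159 and 0.322 to 0.999 TPM, and for Slc6a17, a vesicular carrier of neurons, at 0.0503 to 0.0900 and 0.160 to 0.392 TPM. When all genes were tested without a filter, as deposited, both were called higher, with log2FC values of 0.49 and 0.23 on the TPM + 1 scale. These are levels where 1 TPM exceeds every value. Among the 13080 genes that passed the filter, 34.0% did not overlap in this direction as deposited and 32.7% were called higher. Their median log2FC was 0.23. The remaining 3 reached 1 TPM in some library. Slc7a2 (CAT2), the cationic carrier often induced in macrophages, had a TPM of 0.469, 0.576, 0.659 and 0.661 in WT and 0.901, 1.20, 0.896 and 1.76 in hSKP2-KI libraries, a difference of 0.44 in log2(TPM + 1). In an exact two-sided permutation test over 70 assignments, p was 0.0286, the smallest it can give, and 0.0857 adjusted over the 3 genes. Slc36a2 (PAT2) differed by 0.52 (exact p = 0.171) and was lowest in WT replicate 3, at 0.211 TPM, where adipocyte markers were low. Slc6a13 (GAT2) differed by 0.06 (exact p = 0.914).

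Ratios of paired genes within a library were compared because scaling cancels in a plain ratio. With 1 TPM added to both genes, as here, it cancels only for genes well above 1 TPM. Of 8 ratios of log2(TPM + 1), 3 separated the genotypes without overlap, each with an exact two-sided permutation p of 0.0286 and an adjusted p of 0.0762 over the 8. The ratio of Slc7a5 to Slc7a8, the carriers LAT1 and LAT2 that both pair with Slc3a2, was 0.73, 1.31, 1.29 and 1.09 in WT and 1.61, 1.65, 1.56 and 1.73 in hSKP2-KI libraries, a mean difference of 0.53. The ratio of Slc7a1 to Slc7a2 was 3.90, 4.22, 4.14 and 3.98 in WT and 3.27, 3.31, 3.66 and 3.14 in hSKP2-KI libraries, a mean difference of -0.72. The ratio of Slc38a1 to Slc38a2 was 0.11, -0.15, -0.15 and -0.06 in WT and -0.22, -0.25, -0.28 and -0.41 in hSKP2-KI libraries, a mean difference of -0.23. Slc7a2 lies near 1 TPM, and without the added 1 TPM, which makes the ratio free of scaling, the mean difference of Slc7a1 to Slc7a2 was -1.25 (exact permutation p = 0.0286). No ratio had an adjusted p under 0.05. The smallest p this test can give is 0.0286, so a single separated ratio among the 8 could not have reached that threshold. The other 5 overlapped: Slc7a5 to Slc3a2 differed by 0.28, Slc43a1 to Slc43a2 by 0.25, Slc7a6 to Slc7a7 by -0.24, Slc6a6 to Slc6a8 by -0.10 and Slc1a5 to Slc1a4 by -0.07, with exact p-values from 0.171 to 0.714.

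**Figure D5:**
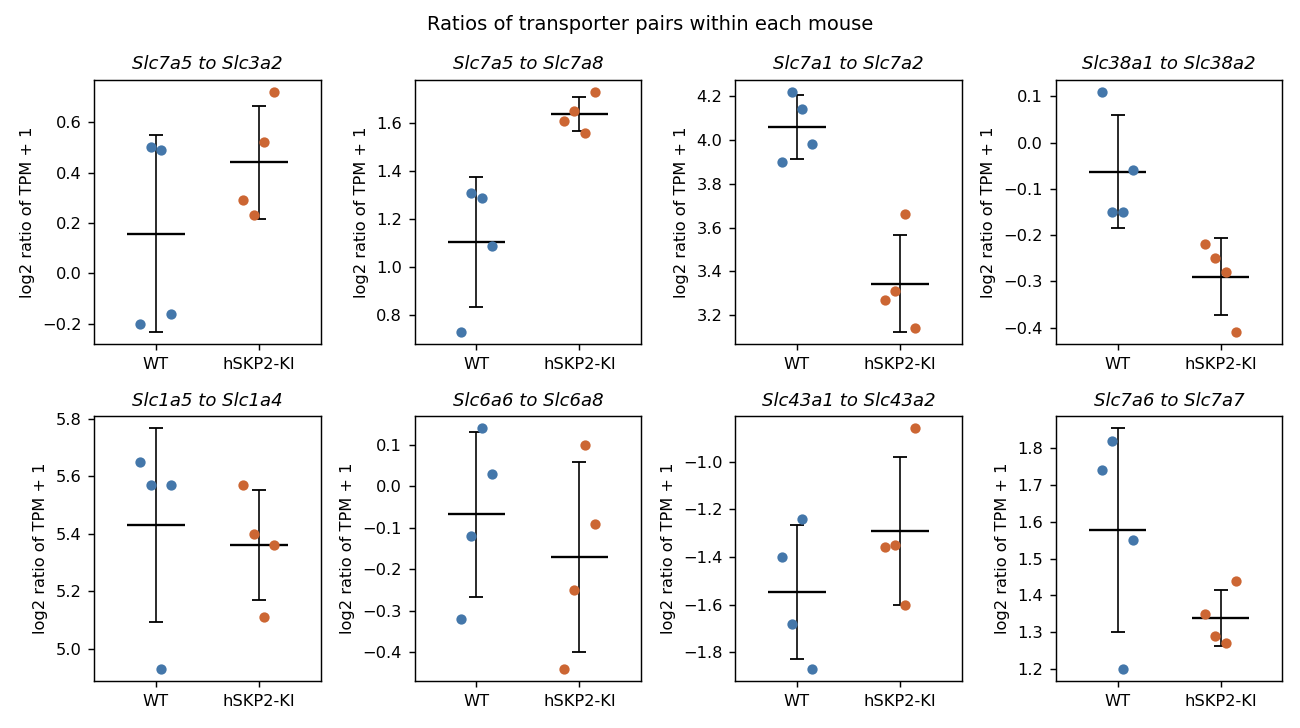
Log2 ratios of TPM + 1 of 8 transporter pairs within each of 4 WT and 4 hSKP2-KI ventral prostates. Points are mice, lines are means and bars are SD; the axes differ between panels and do not start at 0. The ratio of Slc7a5 to Slc7a8 is at most 1.31 in WT and at least 1.56 in hSKP2-KI prostates.

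Other carriers and the enzymes that charge tRNA with amino acids are read against the shares of all genes in each direction. As deposited 32.7% of all genes were called higher and 1.23% lower, and after scaling 6.91% and 4.25%. In these 2 lists every call as deposited was higher and every call after scaling was lower. Of 10 tested genes among other amino acid and peptide transporters, 2 were called higher as deposited, the peptide transporters Slc15a2 and Slc15a3, with log2FC values of 0.89 (adjusted p = 0.0187) and 0.64 (adjusted p = 0.0249), and neither was called after scaling. Slc16a10 (TAT1), an aromatic amino acid carrier, had a log2FC of -0.27 (adjusted p = 0.0987) and of -0.52 after scaling (adjusted p = 0.0237). Of 20 cytosolic aminoacyl-tRNA synthetases, all tested, 1 was called higher as deposited, Hars at 61.4 and 71.1 TPM, and 2 were called lower after scaling, Gars and Yars. Hars had an adjusted p of 0.0371 as deposited, of 0.0504 to 0.0986 when any 1 library was left out, and a log2FC of -0.06 after scaling. The synthetases' median log2FC was 0.09 as deposited and -0.17 after scaling.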

How the data were processed

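Poly-A RNA of 8 ventral prostates was sequenced by the authors with paired-end reads, and trimming and mapping were done in CLC software. The submitters' processing notes name mm10 (GRCm38); version, annotation and strand setting are not given in the sources used here. The authors deposited TPM values for 36333 genes, each library summing to 1000000. The study's methods state a nominal depth, but the reads obtained per library are not in the files used here, so no counting interval is given.

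Log2(TPM + 1) of the 13080 genes that reached 1 TPM in 4 or more libraries was fitted with limma 3.58.1 (R 4.3.3, trended empirical Bayes), with Benjamini-Hochberg adjustment over all of them (threshold 0.05). The fit was repeated after median-ratio scaling of the TPM. Ratios and genes below the filter were compared with exact permutation tests. The procedure was tested on simulated data. Positions and promoters came from RefSeq, GRCm38.p6. Every member could be named, values per library are given for members called in either fit and for the 10 most abundant, and other genes come from lists of pathways and markers. Members and lists were chosen with earlier results of these data known. Whether the mice came from separate litters is not stated. The labels name no batch. Correlations between libraries of a genotype were 0.981 to 0.99 across genes. Replicate numbers do not pair the mice: deviations of same-numbered libraries correlated at 0.221, -0.109, 0.167 and -0.0142. Alternatives were a pseudocount of 0.1, no filter, a mean TPM of at least 5, quantile normalization, rescaling with the 20 most abundant genes removed, a replicate block and leaving out each library. Leaving out both libraries with skeletal muscle transcripts, and the block and left-out libraries after median-ratio scaling, were chosen after seeing the data. Figures were drawn with matplotlib 3.10.9 (Python 3.11.15). Some genes of the lists are not reported here by name.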

Additional observations from a re-analysis of the deposited data

Results flagged for a closer look

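In 70 groups of 4 libraries (the 35 members with a TPM of at least 1 in some library), the highest or lowest library was examined for a gap to its neighbour above Dixon's critical value for 4 samples, as a share of the group's range. This was so for 3 groups, and chance gives about 1 in 20. Slc36a4 was at 7.52 TPM in WT replicate 1, against 9.88 to 10.4 in the other WT libraries. Slc6a4 was at 3.78 TPM in hSKP2-KI replicate 4, against 2.15 to 2.38 in the other hSKP2-KI libraries. Slc6a8 was at 29.8 TPM in WT replicate 2, against 25.3 to 25.8 in the other WT libraries.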

How the results depend on the processing

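Scaling mattered most. Among all genes tested, 4272 were called higher and 161 lower as deposited, 904 and 556 after median-ratio scaling, 709 and 608 after quantile normalization, and 888 and 438 when rescaled without the 20 most abundant genes. Members called higher numbered 3 as deposited and 1, 1 and 1 under these scalings, and members called lower numbered 1 and 6, 7 and 6. Replicate numbers pair no mice, and with a replicate block 6 members were called higher and 2 lower, or 2 higher and 7 lower with the block after median-ratio scaling. Leaving out 1 library gave 2839 to 4548 genes higher, 3 to 4 members higher and 1 to 3 lower as deposited; the lowest count of genes and the 3 members lower came without WT replicate 1. After median-ratio scaling it gave 470 to 808 genes higher, 298 to 483 lower, and 5 to 8 members lower. Without both libraries with skeletal muscle transcripts, 266 genes were higher, 172 lower and 2 members lower after scaling. The causes were not tested. Without a pseudocount, an alternative chosen after seeing the data, the difference of Slc7a1 to Slc7a2 was -1.25 and of Slc7a6 to Slc7a7 -0.40, and no ratio changed its side of the threshold. Leaving out 1 library moved the log2 ratio difference of Slc7a1 to Slc7a2 between -0.82 and -0.65, of Slc38a1 to Slc38a2 between -0.26 and -0.17, of Slc7a6 to Slc7a7 between -0.36 and -0.16 and of Slc1a5 to Slc1a4 between -0.24 and 0.01 (0.00 without WT replicate 1).

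The log2 fold changes of the following members, none called as deposited or after median-ratio scaling, changed sign. Under median-ratio scaling, quantile normalization and rescaling in turn they were -0.16, -0.18 and -0.14 for Slc38a7, -0.10, -0.09 and -0.08 for Slc7a6os, -0.20, -0.23 and -0.18 for Slc43a2, -0.19, -0.16 and -0.17 for Slc38a10, -0.03, -0.16 and -0.01 for Slc38a6, -0.09, -0.23 and -0.07 for Slc1a3, -0.08, -0.06 and -0.06 for Slc38a2, and -0.06, -0.03 and -0.04 for Slc3a2. Under the first pair they were -0.02 and -0.05 for Slc7a6 and -0.00 and -0.14 for Slc6a4, and under quantile normalization -0.03 for Slc43a1 and -0.10 for Slc38a5. Slc1a3 was at -0.04 without both libraries with skeletal muscle transcripts. Leaving out 1 library gave -0.47 to 0.01 for Slc7a10, -0.13 to 0.09 for Slc1a4, -0.07 to 0.15 for Slc43a2, -0.15 to 0.01 for Slc38a9, -0.12 to 0.03 for Slc7a8, -0.20 to 0.24 for Slc1a3 and -0.14 to 0.03 for Slc38a1. Of the other genes named, Atf4 and Hars turned to -0.18 and -0.06 after median-ratio scaling, and Gclc lay between -0.25 and 0.09. The reads obtained per library are not in the files used here, so the precision of low TPM rests on the spread of 4 libraries.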
